A study of Mus musculus with 24 samples.

Results

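The miRNAs described here are miR-10a-5p, miR-10b-5p, miR-196a-5p and miR-196b-5p, the main products of the miR-10 and miR-196 genes, which lie inside the Hox gene clusters of the mouse. They were taken by name, and 4 of the 1009 miRNAs listed in the deposited table carry these names. The libraries came from whole mammary glands (the fourth and the fifth pair) of female C57BL/6 mice without any transgene or treatment named in the sources used here. Small RNA of 6 mice was sequenced at each of 4 stages, with 1 library per mouse: W10, adult mice aged 10 weeks; P18, late pregnancy at day 18; Lac7, the 7th day of nursing; and Inv3, the 3rd day of the regression that follows it (involution). These days come from the sample labels and the study's methods, and the series design text has them the other way round, with 3 for lactation and 7 for involution. The ages of the pregnant, lactating and involuting mice are not given in the sources used here. Since the gland was homogenised whole, fewer cells of a type and less of a miRNA per cell cannot be told apart in any of the values below.

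A miRNA is a short RNA that lowers the output of messenger RNAs carrying a match to its seed, bases 2 to 8. It is cut from a hairpin precursor, which can give one miRNA from its 5′ side (5p arm) and another from its 3′ side (3p arm). Hox genes encode the transcription factors that give cells their position along the body axis, and the miR-10 and miR-196 genes sit between or within them. Several Hox messenger RNAs are known targets of these miRNAs. Hoxb8, cleaved through a nearly perfect match to miR-196, is the best known example. Hox genes of several clusters are also known to act in growth of the mammary gland, Hoxa9, Hoxb9 and Hoxd9 among them.

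The mature sequences, from RefSeq (GRCm38.p6), are shown because they decide how well reads of a pair can be told apart. Capitals mark the seed.
mmu-miR-10a-5p: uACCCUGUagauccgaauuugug
mmu-miR-10b-5p: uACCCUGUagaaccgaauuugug
mmu-miR-196a-5p: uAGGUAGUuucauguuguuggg
mmu-miR-196b-5p: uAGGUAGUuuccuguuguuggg

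Members of a pair share their seed, and no other listed miRNA with a RefSeq sequence (854 of 1009 had one) has either seed. The pair of miR-10 differs at 1 of 23 bases and the pair of miR-196 at 1 of 22 bases, in both cases at position 12 from the 5′ end. The substitution is U12A from miR-10a-5p to miR-10b-5p and A12C from miR-196a-5p to miR-196b-5p. How reads that fit both members of a pair were assigned is not given in the sources used here, so the split between members of a pair is less certain than their sum. Between the families, miR-10a-5p and miR-196a-5p have the same base at 31.8% of 22 positions, counted from the 5′ end without gaps. This count also gives 31.8% for miR-10a-5p and miR-99a-5p, a relative of miR-10 described below, so it does not measure how alike the families are. Bases 2 to 7 of miR-196, AGGUAG, occur 1 base further on, at bases 3 to 8, in 11 listed miRNAs, of which 10 belong to the let-7 and miR-98 family.

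The 4 miRNAs come from 5 genes in the 4 Hox clusters. Mir10a lies at chr11:96317165-96317274 on the plus strand, in no annotated transcript, with Hoxb4 starting 993 bases further on and Hoxb5 ending 11044 bases before it. Mir10b lies at chr2:74726070-74726137 on the plus strand, in introns of transcripts of Hoxd3 and Hoxd4. Mir196a-1 (chr11:96265164-96265265, plus strand) lies in no annotated transcript, between Hoxb13 and Hoxb9, 6192 bases before the latter. Mir196a-2 (chr15:102973350-102973434, plus strand) lies between Hoxc10 and Hoxc9, in an intron of a transcript of Hoxc5. Mir196b (chr6:52230081-52230165, minus strand) lies in an exon of a transcript of Hoxa9. Both genes of miR-196a give the same 5p sequence, so the reads do not say which of them was used. In the Hoxb cluster, Mir10a and Mir196a-1 share a chromosome and a strand.

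Levels are given in RPM, a read count scaled so that the listed miRNAs of every library sum to 1000000. Whole reads could be recovered from the values, and libraries held between 660346 and 1165321 reads, with 660346 to 751890 at Lac7. A count of 0 allows up to 3 reads, or 2.57 to 4.54 RPM, for counting error only. Each member was read in all 24 libraries, with at least 284 reads (miR-196b-5p at Lac7) and up to 10130 (miR-10a-5p at W10). Counting error is therefore below the spread between mice. It is not negligible beside that spread where reads were fewest, as for miR-10b-5p and miR-196b-5p at Lac7. Together the 4 miRNAs took 1.66% ± 0.381, 1.005% ± 0.135, 0.670% ± 0.0431 and 1.04% ± 0.0694 of the reads at W10, P18, Lac7 and Inv3 (SD, n = 6).

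The most abundant member at all 4 stages was miR-10a-5p. In the W10 mice its level was 10924, 7380, 9949, 6944, 6826 and 7040 RPM (mice 1 to 5 and 7 in this order, as for all W10 values). At P18 the 6 mice had 6710, 5784, 7053, 7219, 4940 and 5453 RPM. At Lac7 they had 4902, 3744, 4714, 4064, 4275 and 3728 RPM, below the lowest mouse of every other stage. At Inv3 the values were 6500, 6597, 6507, 6175, 7157 and 7624 RPM. Relative to the mean, the spread was widest at W10 (21.8%), where mice 1 and 3 stood above the other 4, and narrowest at Inv3 (7.8%). By mean level miR-10a-5p ranked between 23 and 32 among all listed miRNAs at the 4 stages. The order of the means was W10 (8177 RPM ± 1787), Inv3 (6760 ± 530), P18 (6193 ± 932) and Lac7 (4238 ± 491; SD, n = 6). Of the neighbours in this order, only P18 and Lac7 differed in the limma fit (adjusted p = 7.9e-04).

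The other miR-10, miR-10b-5p, was less abundant in every library. The W10 mice had 923, 733, 866, 810, 488 and 656 RPM, and the P18 mice had 675, 541, 634, 636, 451 and 492 RPM. At Lac7 the levels were 456, 436, 601, 507, 491 and 506 RPM. At Inv3 they were 653, 658, 737, 711, 794 and 854 RPM, so that all 6 mice were above all Lac7 mice. Every other pair of stages overlapped. The means were 746 RPM ± 158 at W10, 735 ± 78.8 at Inv3, 571 ± 90.1 at P18 and 499 ± 57.0 at Lac7 (SD, n = 6). In this order, W10 and Inv3 (adjusted p = 0.99) and P18 and Lac7 (adjusted p = 0.30) were not distinguished by limma, while Inv3 and P18 just passed (adjusted p = 0.048).

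High levels of miR-196a-5p were found in the adult gland. Its W10 values were 8671, 4961, 5406, 3512, 5037 and 5268 RPM, and every W10 mouse was above every mouse of the other stages. The P18 mice had 2487, 1952, 2705, 2583, 2206 and 2111 RPM. At Lac7 the values were 1497, 1563, 1292, 1390, 1348 and 1691 RPM, which did not overlap with P18. The Inv3 mice had 2550, 2538, 1774, 1855, 2394 and 1659 RPM, within or below the range of P18 and, apart from mouse 6, above Lac7. The means were 5476 RPM ± 1707 at W10, 2341 ± 295 at P18, 2129 ± 409 at Inv3 and 1463 ± 149 at Lac7 (SD, n = 6). P18 and Inv3 were the only neighbours in this order that limma did not separate (adjusted p = 0.53).

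The same order held for miR-196b-5p at lower levels. The W10 mice had 2818, 2035, 2435, 1556, 2135 and 2264 RPM, and the P18 mice had 1004, 774, 1068, 996, 919 and 891 RPM. The Lac7 mice had 524, 537, 475, 446, 430 and 583 RPM. At Inv3 the values were 977, 991, 548, 674, 741 and 490 RPM, the widest relative spread of this miRNA at any stage (28.6% of the mean). W10 did not overlap with any other stage, and P18 did not overlap with Lac7, while Inv3 reached from the Lac7 range into the P18 range. The means were 2207 RPM ± 421 at W10, 942 ± 104 at P18, 737 ± 211 at Inv3 and 499 ± 58.8 at Lac7 (SD, n = 6). P18 and Inv3 were again not separated (adjusted p = 0.065).

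**Figure D1:**
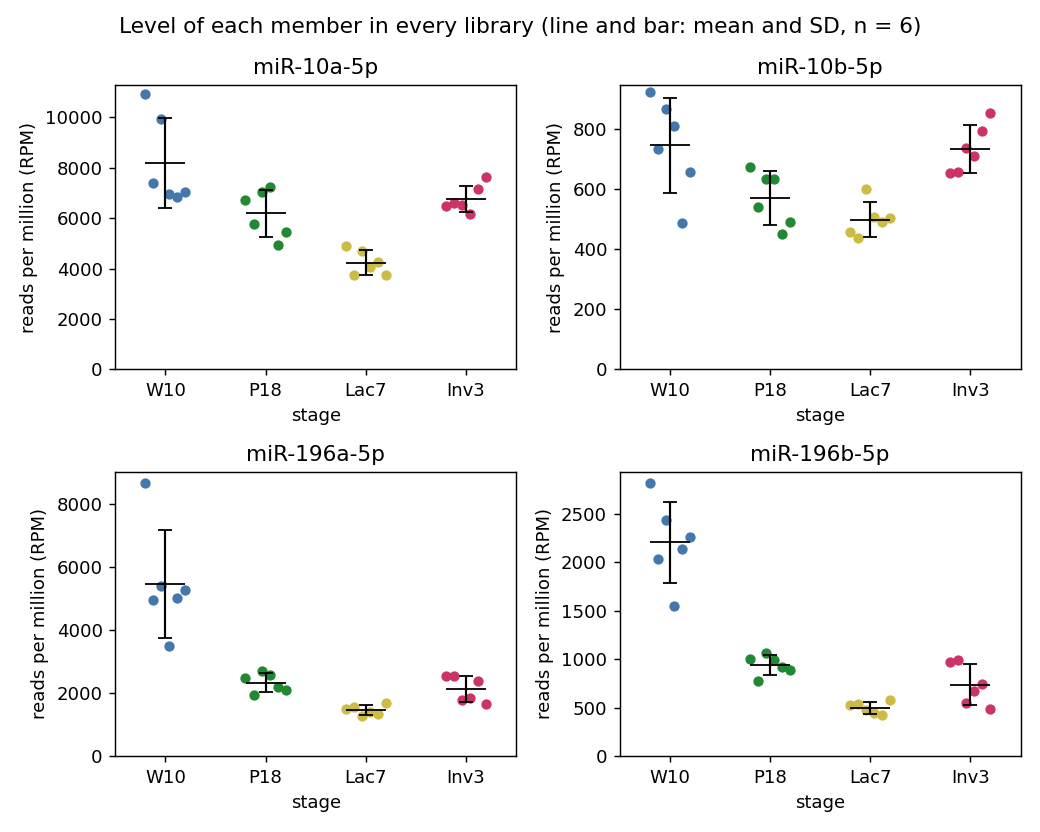
Level of the 4 miRNAs in each library (y axis, RPM from 0; x axis, stage; 1 point per mouse, by mouse number from left to right, with mean and SD of 6 mice). The W10 mice of both miR-196 lie above all mice of the other stages, and Lac7 has the lowest mean in all 4 panels.

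Stages were compared with limma on log2(RPM + 1) on all 24 libraries at once, keeping the 544 miRNAs whose mean reached 1 RPM at some stage. Calls required an adjusted p below 0.05 (two-sided, Benjamini-Hochberg, over all 544). RPM depends on what the most abundant miRNAs take, so each comparison is also given after scaling by DESeq2 size factors, which follow the typical miRNA instead of the total. Over the tested miRNAs, the median log2 fold change moved from -0.32 on RPM to -0.08 with size factors for P18 against W10, and from -0.34 to -0.13 for Lac7 against P18. It moved from 0.28 to 0.17 for Inv3 against Lac7, from -0.66 to -0.28 for Lac7 against W10, from -0.41 to -0.09 for Inv3 against W10 and from -0.11 to -0.02 for Inv3 against P18. The RPM scale therefore placed the typical miRNA lower at Lac7 than at the other stages, and a member's change is best read against that median. The median of the 4 members on RPM was -0.79 for P18 against W10, -0.61 for Lac7 against P18, 0.54 for Inv3 against Lac7, -1.39 for Lac7 against W10 and -0.79 for Inv3 against W10, farther from 0 than the median of all tested miRNAs in these 5 comparisons. For Inv3 against P18 it was -0.01 on RPM, nearer to 0 than that median, and 0.12 with size factors, of the opposite sign.

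From the adult gland to late pregnancy, both miR-196 fell strongly, with W10 means 2.34 times the P18 means, and both miR-10 fell by less, with W10 means 1.32 and 1.31 times the P18 means. The log2 fold change (P18 against W10) was -1.18 ± 0.156 for miR-196a-5p (SE; adjusted p = 5.6e-07) and -1.21 ± 0.159 for miR-196b-5p (adjusted p = 5.6e-07). For miR-10a-5p it was -0.39 ± 0.125 (adjusted p = 0.013) and for miR-10b-5p -0.37 ± 0.141 (adjusted p = 0.036). All 4 were thus called lower, as were 29.4% of all tested miRNAs. Relative to the median miRNA, miR-196a-5p and miR-196b-5p were lower by log2 values of -0.87 and -0.90, and miR-10a-5p and miR-10b-5p by only -0.07 and -0.05. With size factors both miR-196 remained called (-0.93, adjusted p = 1.1e-04, and -0.96, adjusted p = 6.4e-05) and both miR-10 did not (-0.14, adjusted p = 0.44, and -0.12, adjusted p = 0.53), against 22.3% of all tested miRNAs called lower. The call of miR-10b-5p was also lost on RPM when any 1 of W10 mice 1 to 4 or of P18 mice 2, 5 and 6 was left out (adjusted p = 0.054 to 0.098), while the other 3 calls were kept. Over all miRNAs, lower calls were 70.8% of the calls on RPM and 56.3% with size factors.

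Between late pregnancy and lactation, miR-196b-5p fell most of the 4, followed by miR-196a-5p and miR-10a-5p. Lac7 against P18, the log2 fold change was -0.92 ± 0.159 for miR-196b-5p (SE; adjusted p = 2.8e-05), -0.67 ± 0.156 for miR-196a-5p (adjusted p = 7.6e-04) and -0.54 ± 0.125 for miR-10a-5p (adjusted p = 7.9e-04). For miR-10b-5p it was -0.19, with a 95% interval from -0.47 to 0.10. Relative to the median miRNA, the 4 values were -0.57, -0.33, -0.20 and 0.16 in the same order. The 3 calls stand beside 31.4% of all tested miRNAs called lower. With size factors, 1 member was called, miR-196b-5p (-0.61, adjusted p = 0.0050), beside 24.7% of all tested miRNAs. On that scale miR-196a-5p had -0.37 (adjusted p = 0.093), miR-10a-5p -0.24 (adjusted p = 0.15) and miR-10b-5p a value of the opposite sign, 0.12 (adjusted p = 0.51). Lower calls made up 69.5% of all calls on RPM and 55.9% with size factors.

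At day 3 of involution all 4 miRNAs were higher than in lactation, by similar factors. Inv3 against Lac7, the log2 fold change was 0.68 ± 0.125 for miR-10a-5p (SE; adjusted p = 7.0e-05) and 0.56 ± 0.141 for miR-10b-5p (adjusted p = 0.0019). It was 0.52 ± 0.156 for miR-196a-5p (adjusted p = 0.0071) and 0.52 ± 0.159 for miR-196b-5p (adjusted p = 0.0088). Relative to the median miRNA, the 4 values were 0.39, 0.27, 0.24 and 0.24 in the same order. All 4 were called higher, beside 27.9% of all tested miRNAs. With size factors the 2 miR-10 remained called (0.50, adjusted p = 0.0030, and 0.38, adjusted p = 0.029) and both miR-196 did not (0.35 and 0.34, each with adjusted p = 0.11), beside 23.4% of all tested miRNAs called higher. The mice of these stages overlapped for both miR-196 and not for both miR-10. The share of all tested miRNAs without overlap was not counted, so this is a description of the values only.

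Across the whole interval from the adult gland to lactation, the levels of miR-196b-5p and miR-196a-5p at W10 were 4.42 and 3.74 times those at Lac7. The log2 fold changes were -2.13 ± 0.159 (SE; adjusted p = 8.8e-12) and -1.86 ± 0.156 (adjusted p = 4.7e-11). For miR-10a-5p the change was -0.93 ± 0.125 (adjusted p = 2.9e-07) and for miR-10b-5p -0.56 ± 0.141 (adjusted p = 0.0012). Relative to the median miRNA, the 4 values were -1.47, -1.19, -0.27 and 0.11 in the same order. The fall of miR-10b-5p was thus smaller than that of the median miRNA. The 4 lower calls stand beside 48.5% of all tested miRNAs called lower. With size factors miR-196b-5p (-1.57, adjusted p = 1.2e-08), miR-196a-5p (-1.30, adjusted p = 3.9e-07) and miR-10a-5p (-0.37, adjusted p = 0.018) remained called, beside 37.9% of all tested miRNAs. On that scale miR-10b-5p did not differ detectably, with a 95% interval from -0.29 to 0.29. Lower calls were 72.7% of all calls on RPM and 60.4% with size factors.

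At day 3 of involution the pairs stood apart in how near they were to the adult level. Inv3 against W10, both miR-196 were still lower, with -1.33 ± 0.156 for miR-196a-5p (SE; adjusted p = 2.4e-07) and -1.61 ± 0.159 for miR-196b-5p (adjusted p = 1.6e-08). For miR-10a-5p the log2 fold change was -0.25, with a 95% interval from -0.51 to 0.01, and for miR-10b-5p it was 0.00, with an interval from -0.29 to 0.29. The 2 lower calls stand beside 31.2% of all tested miRNAs called lower on RPM. With size factors both miR-196 calls were kept (-0.95, adjusted p = 1.4e-04, and -1.23, adjusted p = 3.2e-06), beside 16.7% of all tested miRNAs. The sign of miR-10a-5p turned there (0.13, adjusted p = 0.54), and miR-10b-5p was called higher (0.38, adjusted p = 0.044). Lower calls were 79.8% of all calls on RPM and 56.6% with size factors.

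Set against late pregnancy, involution differed little for these miRNAs. Inv3 against P18, only miR-10b-5p was called (0.37 ± 0.141 SE, adjusted p = 0.048), beside 10.8% of all tested miRNAs called higher. The call was lost on RPM when any 1 of P18 mice 2, 5 and 6 or of Inv3 mice 3 to 6 was left out (adjusted p = 0.063 to 0.13). With size factors it was kept (0.50, adjusted p = 0.0095), beside 12.5% of all tested miRNAs. The 95% intervals on RPM were -0.12 to 0.39 for miR-10a-5p, -0.47 to 0.17 for miR-196a-5p and -0.72 to -0.07 for miR-196b-5p, whose adjusted p was 0.065 and became 0.021 to 0.046 without P18 mouse 2, Inv3 mouse 1 or Inv3 mouse 2.

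**Figure D2:**
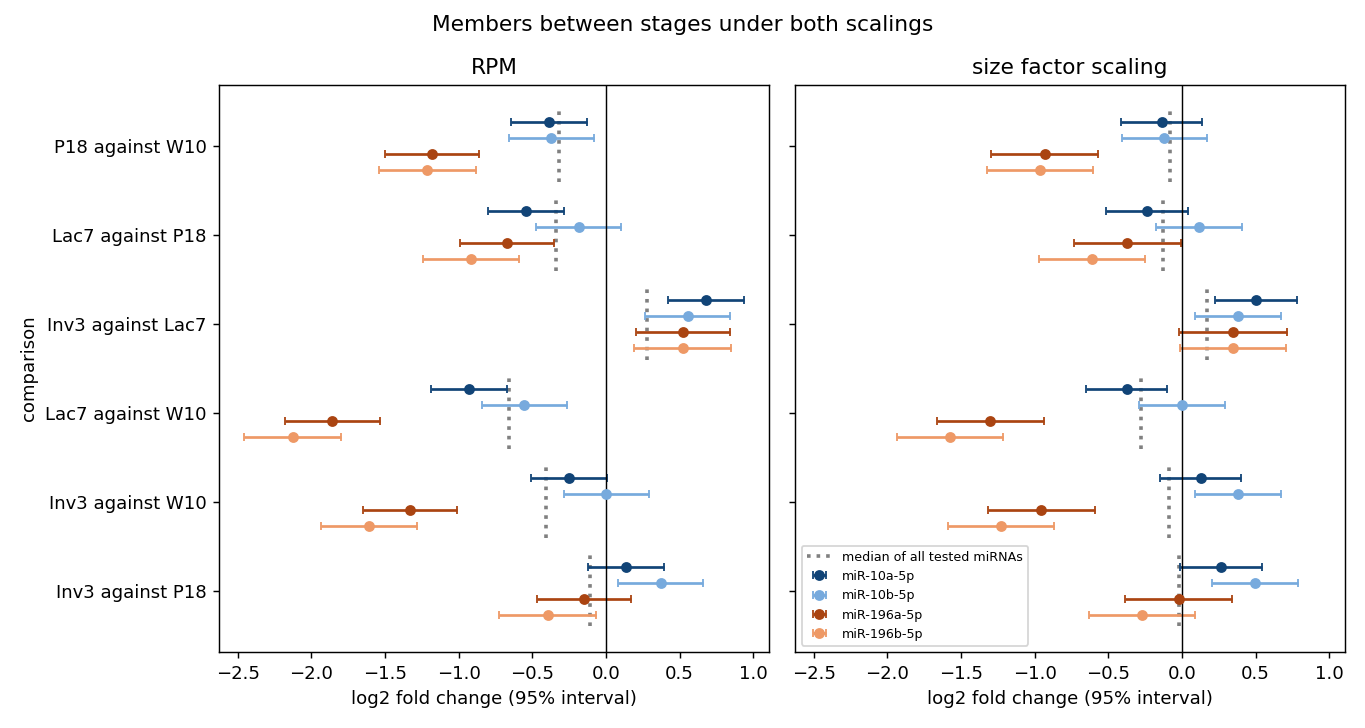
Log2 fold changes of the 4 miRNAs in the 6 comparisons (x axis; points with 95% intervals), on RPM (left) and after size factor scaling (right), with the median of all tested miRNAs as a dotted line. Both miR-196 lie below the median, with intervals that do not reach it, in all 3 comparisons with W10 on both scales.

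Ratios of miRNAs within a library do not depend on how the library was scaled, so the difference between the pairs was tested on them directly. The RPM of each pair were summed first, so the more abundant members, miR-10a-5p and miR-196a-5p, weigh most. By stage means miR-10a-5p was 8.55 to 11.1 times miR-10b-5p, which therefore has little weight. For miR-196a-5p over miR-196b-5p the range was 2.45 to 2.96. The ratio of both miR-10 to both miR-196 was 1.03, 1.16, 1.38, 1.53, 1.02 and 1.02 in the W10 mice, highest in mice 3 and 4. In the P18 mice it was 2.12, 2.32, 2.04, 2.20, 1.73 and 1.98, with no overlap. At Lac7 it was 2.65, 1.99, 3.01, 2.49, 2.68 and 1.86, and at Inv3 2.03, 2.06, 3.12, 2.72, 2.54 and 3.95. All 18 mice of the other stages lay above all W10 mice. The log2 ratio was higher than at W10 by 0.81 at P18, by 1.04 at Lac7 and by 1.18 at Inv3. Each of these differences had an adjusted p of 0.0097 in a two-sided exact permutation test over mice (adjusted over the 18 tests of 3 ratios in 6 comparisons), from an unadjusted p of 0.0022, the smallest that this test can give. The later stages were not separated from each other by that test, with differences of 0.23 for Lac7 against P18 (adjusted p = 0.13), 0.14 for Inv3 against Lac7 (adjusted p = 0.53) and 0.37 for Inv3 against P18 (adjusted p = 0.058, exact permutation tests). The fall of miR-196 relative to miR-10 was thus present by P18.

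Within the pairs, the ratios moved less and in opposite directions. The ratio of miR-10a-5p to miR-10b-5p had means of 11.1 ± 1.82, 10.9 ± 0.498, 8.55 ± 1.18 and 9.24 ± 0.592 at W10, P18, Lac7 and Inv3 (SD, n = 6). On the log2 scale it was lower by 0.36 at Lac7 than at P18 (difference of -0.36, adjusted p = 0.017, exact permutation test) and lower at Inv3 than at P18 (-0.23, adjusted p = 0.017, exact permutation test). The difference of Lac7 from W10 was -0.37 (adjusted p = 0.043, exact permutation test), and was lost without any 1 of W10 mice 1, 2, 3, 5 and 7 or of Lac7 mice 2 to 6 (adjusted p = 0.052 to 0.065).

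The ratio of miR-196a-5p to miR-196b-5p had means of 2.45 ± 0.318, 2.48 ± 0.0850, 2.94 ± 0.159 and 2.96 ± 0.361 at W10, P18, Lac7 and Inv3 (SD, n = 6). It ranged from 2.37 to 2.59 in the P18 mice and from 2.72 to 3.13 in the Lac7 mice, without overlap (log2 difference of 0.24, adjusted p = 0.0097, exact permutation test). Lac7 was also above W10 (0.27, adjusted p = 0.024), and Inv3 above P18 (0.25, adjusted p = 0.016, exact permutation tests). W10 and P18 did not differ detectably (0.03, adjusted p = 0.88, exact permutation test), although without W10 mouse 1, whose ratio of 3.08 was the highest of that stage, the difference became 0.10 (adjusted p = 0.027, exact permutation test). Against P18, the Lac7 glands thus held relatively more miR-10b within the first pair and relatively more miR-196a within the second.

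**Figure D3:**
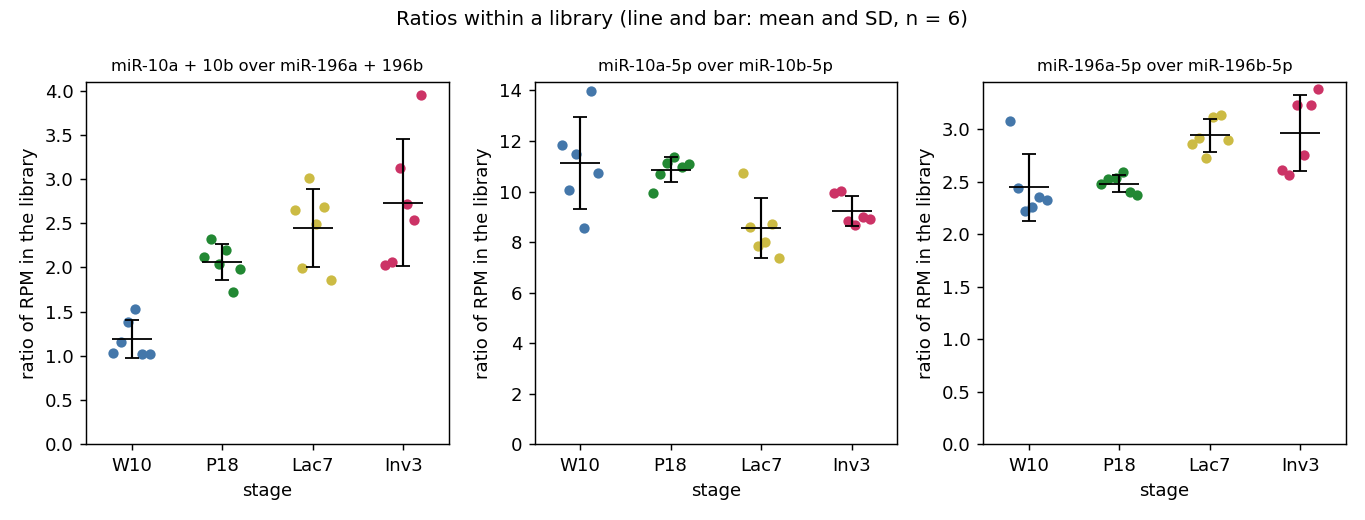
Ratios of RPM within each library (y axis, from 0; x axis, stage; 1 point per mouse with mean and SD of 6 mice), for the pairs (left), within miR-10 (centre) and within miR-196 (right). In the left panel the W10 mice (1.02 to 1.53) lie below all other mice (1.73 to 3.95).

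The 3p arms of the same hairpins were listed too and gave a second reading of the miR-10 genes. The hairpins of Mir10a and Mir10b are shown with the 5p arm and then the 3p arm in capitals (RefSeq, GRCm38.p6).
Mir10a: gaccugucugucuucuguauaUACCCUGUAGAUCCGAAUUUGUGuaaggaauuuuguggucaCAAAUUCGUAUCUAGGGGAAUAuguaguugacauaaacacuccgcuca
Mir10b: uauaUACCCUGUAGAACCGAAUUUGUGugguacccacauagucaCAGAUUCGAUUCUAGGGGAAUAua
The 3p arms differ at 3 of 22 bases (A3G, U9A and A10U from miR-10a-3p to miR-10b-3p, counted from the 5′ end of the arm), against 1 base between the 5p arms, and are shown once more with these bases in capitals.
mmu-miR-10a-3p: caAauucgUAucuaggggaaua
mmu-miR-10b-3p: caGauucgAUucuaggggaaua

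Both 3p arms were present at 105 to 372 RPM, and they moved apart between W10 and P18. The level of miR-10a-3p was 260 RPM ± 28.6, 155 ± 21.3, 130 ± 16.6 and 165 ± 14.1 at W10, P18, Lac7 and Inv3 (SD, n = 6). Every W10 mouse (226 to 304 RPM) was above every P18 mouse (129 to 186 RPM), and the log2 fold change (P18 against W10) was -0.75 ± 0.129 (SE; limma adjusted p = 2.8e-05). With size factors this fall was -0.50, still called (adjusted p = 0.0028). For miR-10b-3p the levels were 264 RPM ± 29.9, 327 ± 24.3, 312 ± 37.0 and 314 ± 50.1 at W10, P18, Lac7 and Inv3. Here every P18 mouse (291.4 to 362.3 RPM) was just above every W10 mouse (224.9 to 290.8 RPM), and the fold change was 0.31 ± 0.126 on the log2 scale (adjusted p = 0.048). The rise was 0.56 with size factors (adjusted p = 7.2e-04) and lost its call on RPM without any 1 of W10 mice 2, 4, 5 and 7 or of P18 mice 2 to 6 (adjusted p = 0.052 to 0.11). So the 5p and the 3p arm of miR-10b had opposite signs between these stages. With size factors, however, the fall of the 5p arm was not called (-0.12, limma adjusted p = 0.53).

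Ratios of arms within a library do not depend on the scaling. They were chosen after the values of the 3p arms had been seen, so they restate those values and are given as a description, with no test. The ratio of miR-10b-5p to miR-10b-3p was 2.83 ± 0.546, 1.76 ± 0.361, 1.61 ± 0.209 and 2.36 ± 0.274 at W10, P18, Lac7 and Inv3 (SD, n = 6). The mean log2 ratio differed by -0.68 between P18 and W10, by -0.79 between Lac7 and W10 and by 0.55 between Inv3 and Lac7. The mice of W10 (2.15 to 3.60) and Lac7 (1.36 to 1.97) did not overlap, while those of P18 (1.36 to 2.31) and Inv3 (1.94 to 2.65) overlapped with both. For miR-10a the 5p arm was in far greater excess, with ratios of 31.3 ± 4.19, 40.8 ± 9.78, 32.6 ± 2.47 and 41.2 ± 4.37 in the same order. The Inv3 mice (36.8 to 48.3) lay above the Lac7 mice (29.1 to 35.5) and the W10 mice (25.3 to 36.3), and the P18 mice (29.3 to 54.7) overlapped with all 3.

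The comparison of both arms is shown by the ratio of miR-10a to miR-10b. On the 3p arms it was 0.990 ± 0.122, 0.473 ± 0.0447, 0.422 ± 0.0650 and 0.540 ± 0.124 at W10, P18, Lac7 and Inv3, with all W10 mice (0.857 to 1.19) above all mice of the other stages. On the 5p arms the same ratio was near 11 at both W10 and P18, as given above. The quotient of the 5p ratio and the 3p ratio was 11.2 ± 1.43 at W10 and 23.1 ± 2.46 at P18, a log2 difference of 1.04, with the W10 mice at 8.53 to 12.5 and the P18 mice at 20.2 to 26.8. The part of reads shared between the nearly identical 5p sequences in this difference was not tested.

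**Figure D4:**
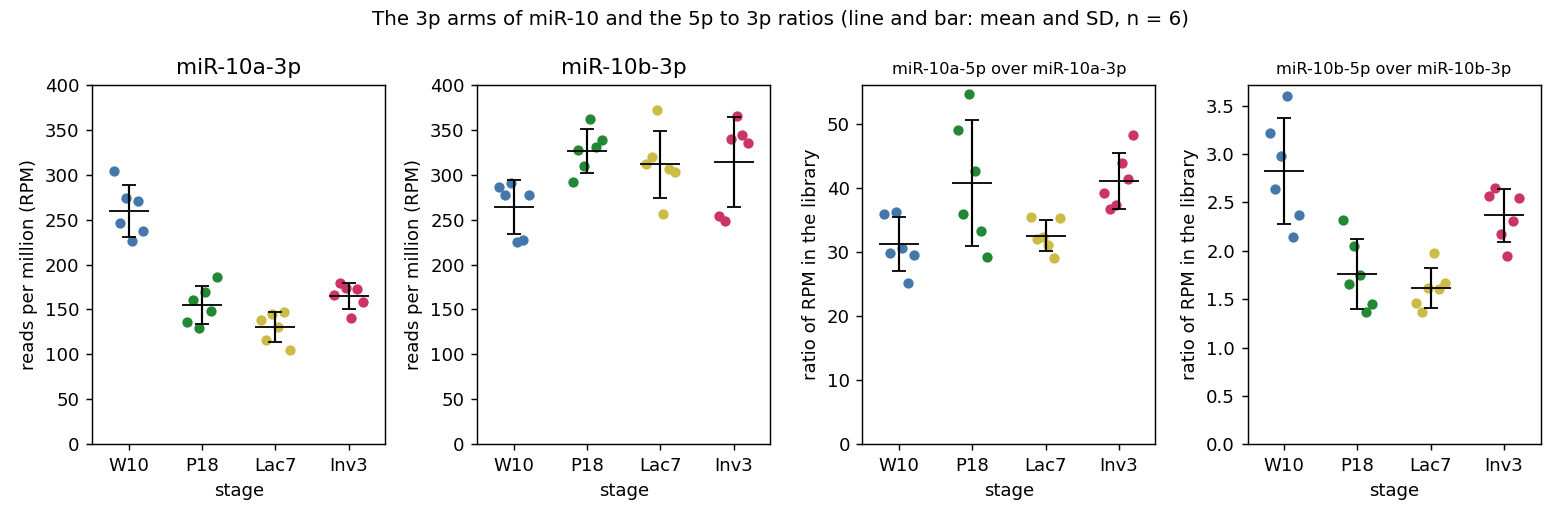
Level of both 3p arms of miR-10 (left pair of panels; y axis, RPM from 0) and ratio of the 5p to the 3p arm within each library (right pair; y axis from 0), by stage (1 point per mouse with mean and SD of 6 mice). From W10 to P18 miR-10a-3p fell from a mean of 260 to 155 RPM, while miR-10b-3p rose from 264 to 327 RPM.

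Of the 7 names on the list of other Hox-cluster miRNAs, 6 were listed in the table. Besides the 3p arms of miR-10 these were 4 miRNAs that were hardly read. Among them, miR-196a-1-3p was read once in all libraries together, in 1 W10 mouse. In no library were there more than 4 reads of miR-196a-2-3p or 2 reads of miR-196b-3p. A comparison of arms as for miR-10 was therefore not possible for miR-196, and the use of Mir196a-1 and Mir196a-2 could not be told apart by their 3p arms. The Hoxc5 miRNA miR-615-3p had 3 to 6 reads in each W10 mouse (2.98 to 5.25 RPM), at most 2 reads in a P18 mouse, none in the 6 Lac7 mice and at most 3 reads in an Inv3 mouse. The sums were 23, 5, 0 and 9 reads over the 6 mice of W10, P18, Lac7 and Inv3. Over all mice, miR-615-3p was called lower at Lac7 than at W10 (limma adjusted p = 1.5e-06, and 3.5e-06 to 7.8e-06 without any 1 mouse). The size of this change is not given, since a count of 0 in a Lac7 library allows up to 3.99 to 4.54 RPM, which reaches the W10 levels of 2.98 to 5.25 RPM.

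Relatives of miR-10 by sequence, which share its bases 2 to 5 but lie outside the Hox clusters, were also measured, and their changes were not tested against those of miR-10. The level of miR-99a-5p was 1303 RPM ± 690, 254 ± 77.1, 104 ± 17.0 and 428 ± 194 at W10, P18, Lac7 and Inv3 (SD, n = 6). That of miR-99b-5p was 214 ± 43.6, 103 ± 28.1, 84.9 ± 13.1 and 170 ± 37.5 RPM, and that of miR-100-5p was 126 ± 49.6, 36.9 ± 12.95, 14.6 ± 3.45 and 52.7 ± 20.6 RPM in the same order. From W10 to P18 all 3 fell, with log2 fold changes of -2.25, -1.08 and -1.73 (limma adjusted p = 3.0e-07, 3.9e-05 and 9.7e-06). From P18 to Lac7 miR-99a-5p (-1.24, adjusted p = 6.8e-04) and miR-100-5p (-1.23, adjusted p = 6.3e-04) fell, while miR-99b-5p had -0.24 (adjusted p = 0.32) on RPM and 0.06 (adjusted p = 0.81) with size factors. From Lac7 to Inv3 all 3 rose, with 1.93, 0.98 and 1.72 (adjusted p = 2.8e-06, 1.1e-04 and 1.1e-05). With size factors all 8 of these calls were kept. The shares of all tested miRNAs called in these directions were 29.4%, 31.4% and 27.9% on RPM and 22.3%, 24.7% and 23.4% with size factors.

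Among the 184 other miRNAs whose mean reached 100 RPM at some stage, those most like each member over the 24 libraries were found by Pearson's r of log2(RPM + 1). The libraries of a stage share that stage, and all values of a library share its total, so r is a description. For miR-10a-5p they were miR-199a-3p (r = 0.87), miR-342-3p (0.86) and miR-125b-5p (0.86). For miR-10b-5p they were miR-140-3p (0.77), miR-99b-5p (0.76) and miR-99a-5p (0.74). For miR-196a-5p they were miR-708-3p (0.94), miR-184-3p (0.92) and miR-365-3p (0.90). For miR-196b-5p they were miR-708-3p (0.96), miR-125b-2-3p (0.93) and miR-669c-5p (0.93). Both miR-196 thus shared their nearest miRNA, miR-708-3p, whose means were 302 RPM, 88.8, 48.8 and 86.0 at W10, P18, Lac7 and Inv3. Once stage means were subtracted, the r of these 12 pairs lay between 0.16 and 0.70, the highest being that of miR-196b-5p with miR-708-3p.

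Mice of a stage also differed from each other, and these differences were shared within the pairs. After the stage means of log2(RPM + 1) were subtracted, miR-196a-5p and miR-196b-5p varied together over the 24 mice (Pearson's r = 0.89, adjusted p = 6.0e-05; Spearman's rho = 0.93, adjusted p = 6.0e-05; permutation within stages, adjusted over 6 pairs). The r was 0.95, 0.97, 0.89 and 0.95 at W10, P18, Lac7 and Inv3, and 0.92 without the 2 mice farthest from the median. The p of 1.0e-05 before adjustment is the smallest that the permutations can give. For miR-10a-5p and miR-10b-5p, r was 0.74 (adjusted p = 0.0023) and rho 0.71 (adjusted p = 0.0030, permutation within stages), with 0.72, 0.96, 0.33 and 0.81 at the 4 stages in the same order and 0.67 without the 2 farthest mice. Between a miR-10 and a miR-196, r over all stages lay between -0.07 and 0.46, and no adjusted p was under 0.13 (permutation within stages). These values pool stages of opposite sign. The 4 relations were all positive at W10 (0.21 to 0.77, with 0.77 and 0.76 for miR-10a-5p with miR-196a-5p and miR-196b-5p) and at P18 (0.59 to 0.79), and all negative at Lac7 (-0.61 to -0.32) and Inv3 (-0.82 to -0.21), a contrast that was not tested. A relation between the pairs within a stage is therefore not described by the pooled r. The part that reads shared between nearly identical members have in the relations within pairs was not tested.

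The relations of the 3p arms to their 5p arms from mouse to mouse did not pass adjustment and varied between stages. At Lac7 the mice had only 75 to 98 reads of miR-10a-3p and 193 to 251 of miR-10b-3p. Counting error is thus a part of the spread of the 3p arms and can weaken these relations, and its size was not tested. The r was 0.36 for the arms of miR-10a (adjusted p = 0.18; rho = 0.44, adjusted p = 0.13) and 0.35 for the arms of miR-10b (adjusted p = 0.18; rho = 0.35, adjusted p = 0.13; permutation within stages, adjusted over 3 relations). At W10, P18, Lac7 and Inv3 it was 0.80, -0.35, 0.82 and 0.22 for miR-10a and 0.55, -0.36, 0.40 and 0.71 for miR-10b, and without the 2 farthest mice 0.21 and 0.29. Between the 3p arms, r was 0.16 (adjusted p = 0.45) and rho 0.26 (adjusted p = 0.22, permutation within stages), with 0.43, 0.77, 0.25 and -0.53 at the 4 stages.

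Markers of cell types, all of which were listed (30 miRNAs in 8 lists), differed between stages, some lists much more than others. The summed level of 7 epithelial markers rose from 20860 to 25330 RPM at W10 to 55460 to 70210 at P18 and 119000 to 138700 at Lac7, and was 27780 to 81460 at Inv3. Of these 7 miRNAs, 5 were called higher and 0 lower at P18 than at W10, 4 higher and 2 lower at Lac7 than at P18, and 1 higher and 6 lower at Inv3 than at Lac7. Myeloid markers (3 miRNAs) were at 24720 to 47270 RPM in the W10 mice, then 6903 to 23190, 3939 to 11990 and 12880 to 23540 RPM in the P18, Lac7 and Inv3 mice. Lymphocyte markers (3 miRNAs) were at 3592 to 5007, 1637 to 2530, 424 to 838 and 1575 to 3743 RPM in the same order. All 6 of these were called lower at P18 than at W10, lower at Lac7 than at P18 and higher at Inv3 than at Lac7. Over all tested miRNAs, 29.4%, 31.4% and 27.9% were called in these directions. In the other directions 66, 75 and 103 of 544 were called. The myeloid list holds both arms of miR-142a, and the fibroblast list both arms of miR-199a. Adipocyte markers (3 miRNAs) were at 421 to 868 RPM at W10 and at 65.2 to 242 RPM at the other stages, with 2 called lower at P18 than at W10 and 1 at Lac7 than at P18. Skeletal muscle markers (4 miRNAs) were at 2378 to 24030 RPM at W10 and 104 to 5001 RPM at the other stages, with 3 called lower at P18 than at W10. Fibroblast and smooth muscle markers (5 miRNAs) were at 169000 to 211300, 191000 to 214800, 147000 to 171100 and 256700 to 349600 RPM at W10, P18, Lac7 and Inv3. Of these 5 miRNAs, 1 was called higher and 3 lower at P18 than at W10, 3 lower and 0 higher at Lac7 than at P18, and all 5 higher at Inv3 than at Lac7. Endothelial markers (2 miRNAs, the arms of miR-126a) were at 15370 to 16780, 14880 to 16420, 17160 to 19550 and 12530 to 17960 RPM in the same order. Of these, 1 was called lower at P18 than at W10, both higher at Lac7 than at P18, and 1 lower at Inv3 than at Lac7. Red blood cell markers (3 miRNAs) were at 371 to 1953 RPM, with 2 called lower at P18 than at W10 and 1 higher at Lac7 than at P18. Between Lac7 and Inv3, 2 skeletal muscle markers were called lower at Inv3, and the red blood cell and adipocyte lists each had 1 called higher and 1 lower. No marker of the epithelial, fibroblast, red blood cell, lymphocyte, myeloid and endothelial lists was at 0 in any library, while 2 skeletal muscle and 2 adipocyte markers were at 0 in at least 1. The part of these changes in the stage differences of the 4 miRNAs was not tested.

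Within stages, 3 of the 32 relations between a member and a marker list passed adjustment. The score of a list was the mean over its markers of log2(RPM + 1) minus the stage mean, so each marker had equal weight. This score can depart from the summed reads. For endothelium, W10 mouse 3 had 16030 RPM and a score of -0.097, and W10 mouse 4 had 15470 RPM and a score of 0.114. Mice with a higher endothelial score had less miR-196b-5p (r = -0.67, adjusted p = 0.018; rho = -0.72, adjusted p = 0.012) and less miR-196a-5p (r = -0.61, adjusted p = 0.018; rho = -0.71, adjusted p = 0.012; permutation within stages). Both relations were negative at each stage, from -0.88 to -0.57 and from -0.85 to -0.55, and were -0.60 and -0.67 without the 2 mice farthest from the median. With red blood cell markers, miR-196b-5p had r = -0.59 (adjusted p = 0.023) and rho = -0.61 (adjusted p = 0.033, permutation within stages), but the r at Lac7 was 0.14 against -0.84 to -0.70 at the other stages. The adipocyte list gave r = 0.32 for miR-196a-5p and 0.33 for miR-196b-5p (adjusted p = 0.49 and 0.41, permutation within stages), and the skeletal muscle list 0.07 and 0.09 (adjusted p = 0.81 and 0.79, permutation within stages). For miR-10a-5p and miR-10b-5p no relation to a list passed, and the lowest adjusted p was 0.095 (miR-10a-5p with myeloid markers, r = -0.51; rho = -0.41, adjusted p = 0.24; permutation within stages).

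At Inv3, the stage with the widest spread of miR-196b-5p, the mice also differed in epithelial markers. Mice 1 to 6 had 31330, 27780, 77060, 63090, 33320 and 81460 RPM of epithelial markers, beside the 977, 991, 548, 674, 741 and 490 RPM of miR-196b-5p given above. Over these 6 mice, r with the epithelial list was -0.98 for miR-196a-5p and -0.91 for miR-196b-5p, and with the fibroblast and smooth muscle list 0.93 and 0.94. Other lists gave values nearly as far from 0, with 0.89 and 0.90 for lymphocytes, 0.86 and 0.86 for myeloid cells and -0.85 and -0.88 for endothelium. At the other stages the relation of both to the fibroblast list had the opposite sign, from -0.89 to -0.64, so no r pooled over stages describes it. The myeloid list likewise had negative r with both at the other stages, from -0.86 to -0.38. For lymphocytes r was -0.54 and -0.80 at Lac7, and between -0.24 and 0.05 at W10 and P18. Over all 24 mice the epithelial list had r = -0.56 with miR-196a-5p (adjusted p = 0.095; rho = -0.67, adjusted p = 0.064) and r = -0.71 with miR-196b-5p (adjusted p = 0.051; rho = -0.56, adjusted p = 0.14; permutation within stages). All these levels are shares of 1 library total, so that a miRNA with many reads lowers the share of the others.

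**Figure D5:**
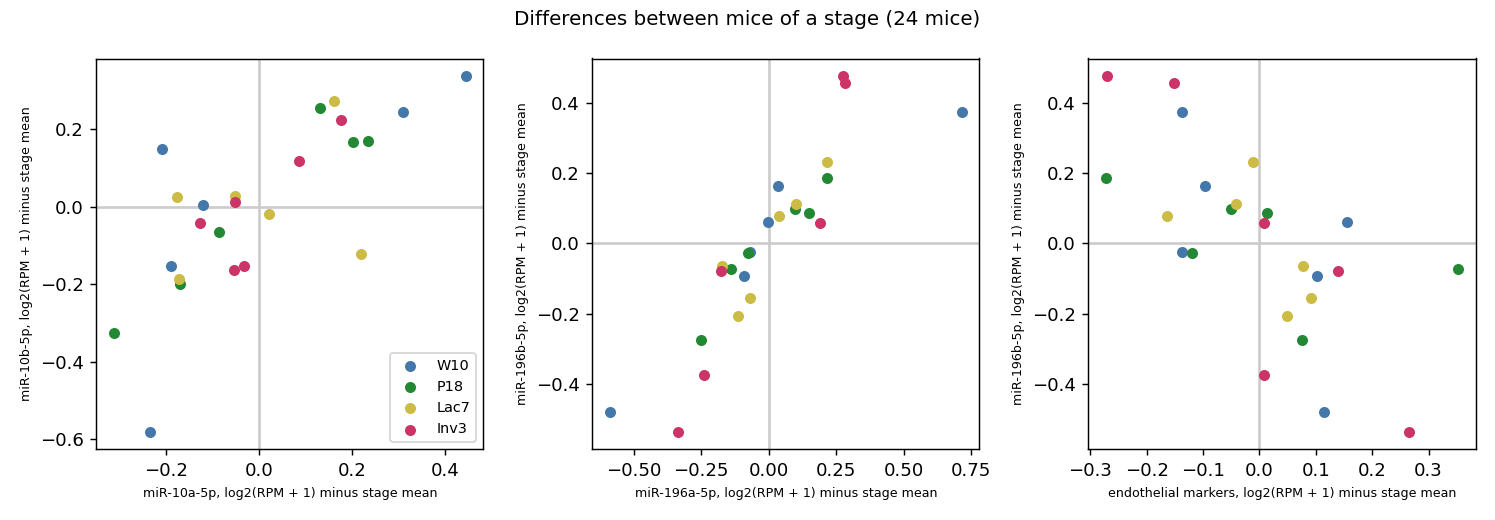
Differences between mice of a stage (both axes, log2(RPM + 1) minus the mean of the stage; 1 point per mouse, 24 mice, coloured by stage) for miR-10b-5p against miR-10a-5p, miR-196b-5p against miR-196a-5p, and miR-196b-5p against the mean of the 2 endothelial markers, the arms of miR-126a. Members of a pair vary together (r = 0.74 and 0.89), while miR-196b-5p is lower in mice with a higher mean of the 2 endothelial markers on this log2 scale (r = -0.67).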

How the data were processed

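Small RNA of whole mammary glands of 24 mice was extracted with a mirVana kit, and QIAseq miRNA libraries were sequenced. The authors assigned reads to miRBase miRNAs with QuickMIRSeq and deposited RPM values, which sum to 1000000 in each library. The submitters' processing notes name GRCm38 and Trimmomatic 0.36. Whether molecular identifiers were counted is not given in the sources used here. Values were whole multiples of 1 step per library, and 100% came out as whole reads (tolerance 0.1). No library was a duplicate: over the 60 pairs of libraries of a stage, chi-square was at least 9.6 times its degrees of freedom.

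From these values, stages were compared with limma 3.58.1 (trended variance) on log2(RPM + 1), in 1 fit over 24 libraries and 544 miRNAs whose mean reached 1 RPM at some stage, with Benjamini-Hochberg adjustment. Fold changes on this scale understate those of low miRNAs. Ratios within libraries were tested by two-sided exact permutation, and relations across mice by 100000 permutations within stages. Alternatives were pseudocounts of 0.1 and 10 RPM, no filter and a filter at 100 RPM, size factor scaling (538 miRNAs), fits to 12 libraries, a replicate block, edgeR 4.0.16 and DESeq2 1.42.0 on recovered reads, and each mouse left out. Named miRNAs are the members, the other Hox-cluster miRNAs, 3 relatives by sequence and the 3 miRNAs most like each member. The members and lists were chosen with earlier results of these data known. Stages came from the labels, and the study's methods give 6 mice per stage. Positions came from RefSeq and GENCODE M21 on GRCm38.p6.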

Additional observations from a re-analysis of the deposited data

Results flagged for a closer look

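Of 64 groups of 6 mice (16 miRNA levels and ratios at 4 stages), 4 held a mouse whose distance to its nearest neighbour was more than 0.625 of the range of the group, where chance gives about 1 in 20 groups. W10 mouse 1 had 8671 RPM of miR-196a-5p, with 5406 RPM in the next mouse. The same mouse had the highest ratio of miR-196a-5p to miR-196b-5p at W10, 3.08, with 2.44 in the next mouse. W10 mouse 4 had the lowest quotient of the 5p and 3p ratios of miR-10a to miR-10b, 8.53, with 11.2 in the next mouse. Lac7 mouse 2 had 21.4 RPM of miR-100-5p, with 14.6 RPM in the next mouse. Without W10 mouse 1, both miR-196 were still called lower at P18, Lac7 and Inv3 than at W10.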

How the results depend on the processing

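Of 216 refits of the members' fold changes under other settings, 183 kept sign and side of the threshold, as did 36 of 36 refits of the ratios with other pseudocounts. The falls of both miR-196 from W10 to P18, Lac7 and Inv3 were called under every setting and without every mouse. The changes of miR-10 depended on the scaling, in the direction of the shift of the median miRNA. With size factors, edgeR and DESeq2 in this order, miR-10a-5p had -0.14, -0.10 and -0.15 for P18 against W10 and 0.13, 0.12 and 0.10 for Inv3 against W10, and miR-10b-5p had -0.12, -0.08 and -0.13 for P18 against W10, -0.0007, -0.12 and -0.03 for Lac7 against W10 and 0.38, 0.38 and 0.36 for Inv3 against W10. With size factors and DESeq2, Lac7 against P18 was -0.24 and -0.25 for miR-10a-5p, 0.12 and 0.10 for miR-10b-5p and -0.37 and -0.37 for miR-196a-5p. Inv3 against Lac7 was then 0.35 and 0.37 for miR-196a-5p and 0.34 and 0.39 for miR-196b-5p. Under edgeR, the Lac7 against P18 calls of miR-10a-5p (-0.39, adjusted p = 0.029) and miR-196a-5p (-0.52, adjusted p = 0.02) were kept, and miR-10b-5p had -0.04. It also kept the Inv3 against Lac7 calls of miR-196a-5p (0.49, adjusted p = 0.027) and miR-196b-5p (0.51, adjusted p = 0.019). The calls of miR-10b-5p were lost with no filter or with 12 libraries alone for P18 against W10 (-0.37 in both) and for Inv3 against P18 (0.37 in both), the latter also with a pseudocount of 10 RPM (0.37). With a filter at 100 RPM, miR-196b-5p was called for Inv3 against P18 (-0.40), and the miRNAs called fell, with fewer tested, from 226 to 127, 246 to 132, 255 to 151, 363 to 164, 213 to 123 and 155 to 101 (P18 against W10, Lac7 against P18, Inv3 against Lac7, Lac7 against W10, Inv3 against W10 and Inv3 against P18).

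Mouse numbers did not pair the libraries (mean r of same-numbered libraries -0.05, with 3 of 24 libraries closest to their own number). A replicate block gave -0.03 for miR-10b-5p in Inv3 against W10 and 0.37, no longer called, in Inv3 against P18, and changed no other call of a member. It also ended the calls of miR-10a-3p for Inv3 against Lac7 (0.34, adjusted p = 0.054) and of miR-10b-3p for P18 against W10 (0.32, adjusted p = 0.090).

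Leaving out 1 mouse at a time moved miR-10b-5p between -0.49 and -0.30 (P18 against W10), -0.11 and 0.07 (Inv3 against W10) and 0.31 and 0.42 (Inv3 against P18), miR-196b-5p between -0.49 and -0.29 (Inv3 against P18), and miR-10b-3p between -0.05 and 0.07 (Inv3 against Lac7). The log2 ratio of miR-10a to miR-10b moved between -0.09 and 0.05 (P18 against W10), -0.45 and -0.30 (Lac7 against W10), -0.32 and -0.18 (Inv3 against W10, called without W10 mouse 4, adjusted p = 0.0078) and 0.08 and 0.19 (Inv3 against Lac7, called without Lac7 mouse 1, adjusted p = 0.011; exact permutation tests). That of miR-196a to miR-196b moved between 0.00 and 0.10 (P18 against W10), 0.24 and 0.34 (Inv3 against W10, called without W10 mouse 1, Inv3 mouse 1 or Inv3 mouse 2) and -0.04 and 0.04 (Inv3 against Lac7). The log2 ratio of the pairs moved between 0.26 and 0.45 (Inv3 against P18, called without Inv3 mouse 1 or 2), and that of the miR-10a arms between -0.05 and 0.13 (Inv3 against P18).

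Among the other miRNAs named, none of the values that changed sign was called. With size factors, edgeR and DESeq2, miR-10b-3p had 0.23, 0.09 and 0.23 for Lac7 against P18, -0.17, -0.03 and -0.16 for Inv3 against Lac7 and 0.06, 0.06 and 0.08 for Inv3 against P18, and miR-99b-5p had 0.05, 0.08 and 0.06 for Inv3 against W10. With size factors and DESeq2, Lac7 against P18 was 0.06 and 0.06 for miR-10a-3p and 0.06 and 0.02 for miR-99b-5p. Some calls also changed. Size factors gave calls of miR-10b-3p as higher than at W10, at Lac7 (0.79, limma adjusted p = 4.2e-06) and Inv3 (0.62, adjusted p = 3.9e-04). They ended the calls of miR-10a-3p for Inv3 against W10 (-0.27, adjusted p = 0.11) and against Lac7 (0.17, adjusted p = 0.30). The same calls were gained and lost with edgeR and DESeq2. Depth limits the 3p arms of miR-196 and miR-615-3p, which had at most 6 reads in a library.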
